A study of Mus musculus with 27 samples.

Results

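The livers of 3 mice given TCDD at 30 µg/kg, the highest dose of the series, were compared with those of 3 mice given the sesame oil vehicle. Both groups were chosen by their dose and treatment labels, and together they hold 6 of the 27 libraries of the series. TCDD (2,3,7,8-tetrachlorodibenzo-p-dioxin) is a persistent environmental contaminant. All mice were ovariectomized C57BL/6 females, labelled as 120 days old, and were gavaged every 4 days for 92 days. The labels also call the dosing daily. The 3 livers at 10 µg/kg, from mice handled in the same way, are used where the highest dose is set against the next one. Liver RNA was sequenced, and the deposited values are read counts per gene.

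TCDD binds the aryl hydrocarbon receptor (AhR), a transcription factor that pairs with ARNT and binds DNA at a short core motif. Its classic targets are the P450 genes of the CYP1 family, conjugating enzymes, and the gene of its own repressor, AHRR. Long exposure to TCDD is known in mice for fatty liver, inflammation and fibrosis, the last being the subject that the series title names.

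The promoters of 3 genes are shown, from 250 bases before to 50 after the start given by RefSeq on GRCm38.p6, because Cyp1a1 is the textbook AhR target, and Col9a2 and Hao1 are among the 12 largest rises and the 12 largest falls. Col9a2 encodes a chain of type IX collagen, known from cartilage, and Hao1 the hydroxyacid oxidase of liver peroxisomes that makes glyoxylate. Capitals mark the AhR core motif GCGTG, searched on both strands with CACGC as its reverse complement. The windows lie at chr9:57697363-57697662 on the plus strand for Cyp1a1, at chr4:121039316-121039615 on the plus strand for Col9a2 and at chr2:134554303-134554602 on the minus strand for Hao1. Each is written 5′ to 3′ on the strand of its gene.
Cyp1a1: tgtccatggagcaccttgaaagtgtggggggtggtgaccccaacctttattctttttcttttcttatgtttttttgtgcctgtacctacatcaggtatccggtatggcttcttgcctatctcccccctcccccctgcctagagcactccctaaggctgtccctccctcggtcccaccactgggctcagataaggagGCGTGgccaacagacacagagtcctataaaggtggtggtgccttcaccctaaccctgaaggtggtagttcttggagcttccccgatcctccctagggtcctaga
Col9a2: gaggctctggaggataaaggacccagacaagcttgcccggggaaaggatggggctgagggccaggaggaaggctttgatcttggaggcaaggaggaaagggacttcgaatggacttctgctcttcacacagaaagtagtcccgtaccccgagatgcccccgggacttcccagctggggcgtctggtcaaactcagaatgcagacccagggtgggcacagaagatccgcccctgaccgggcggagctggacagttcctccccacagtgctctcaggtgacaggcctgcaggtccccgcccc
Hao1: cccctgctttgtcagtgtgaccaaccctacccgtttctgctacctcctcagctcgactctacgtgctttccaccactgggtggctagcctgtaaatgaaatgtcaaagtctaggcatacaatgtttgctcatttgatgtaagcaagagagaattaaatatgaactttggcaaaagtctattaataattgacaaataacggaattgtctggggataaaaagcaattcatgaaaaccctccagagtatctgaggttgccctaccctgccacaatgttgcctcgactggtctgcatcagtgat
The Cyp1a1 window holds the motif 1 time, and these letters are not in the other 2 windows. The Ahrr window holds it 3 times and those of Tiparp, Cyp1b1 and Gsta1 1 time each, and it is not in those of Cyp1a2, Nqo1 and Nfe2l2. A match is a description of the letters, not of binding. RefSeq gave 32851 such promoters, and 32.39% hold it (median share of G and C 52.7%). Promoters of the genes tested are richer in G and C (median 60.3%), and 49.45% of them hold it. The part of base composition in this gap was not tested. Of the 15121 genes tested here 10911 matched a promoter, and the motif was in 45.32% of the promoters of genes called higher (920 of 2030), 47.27% of those called lower (1049 of 2219) and 51.44% of those not called (3427 of 6662).

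Counts totalled 17869187, 22418418 and 14147986 in the 3 libraries at 30 µg/kg, against 26212424, 19906704 and 29460863 in the vehicle libraries. Levels are CPM, counts scaled to library size with TMM factors, in the order of the replicate numbers. Folds and adjusted p-values come from edgeR's quasi-likelihood test with Benjamini-Hochberg adjustment over 15121 genes, and the word called marks those under 0.05. The labels call the 3 livers of a group biological replicates. In a whole liver, fewer cells of a type and less RNA per cell cannot be told apart.

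At 30 µg/kg 5660 of 15121 genes were called against vehicle (37.4%), of which 2720 were higher (18%) and 2940 lower (19.4%). The called changes were more than 2-fold for 1833 higher and 1204 lower genes, more than 10-fold for 306 and 112, and more than 100-fold for 64 and 15. Groups without overlap were common. All 3 TCDD livers lay above all 3 vehicle livers for 3615 of the 15121 genes (23.9%), and below them for 3914 (25.9%). The split between directions depends on the scaling: with RLE factors 3345 genes were called higher and 2299 lower, and the median over all genes was then 0.10 on the log2 scale in place of -0.01. The counts of gene lists below are read against 18% and 19.4%. Members near 0 in vehicle livers could pass the low-count filter only through TCDD libraries, which favours their calls as higher. This bears on the AhR, NRF2, collagen, matrix, TGF-beta, EGF, cell cycle, apoptosis, stress response, chemokine and macrophage lists among others. The 18% holds such genes too.

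**Figure D1:**
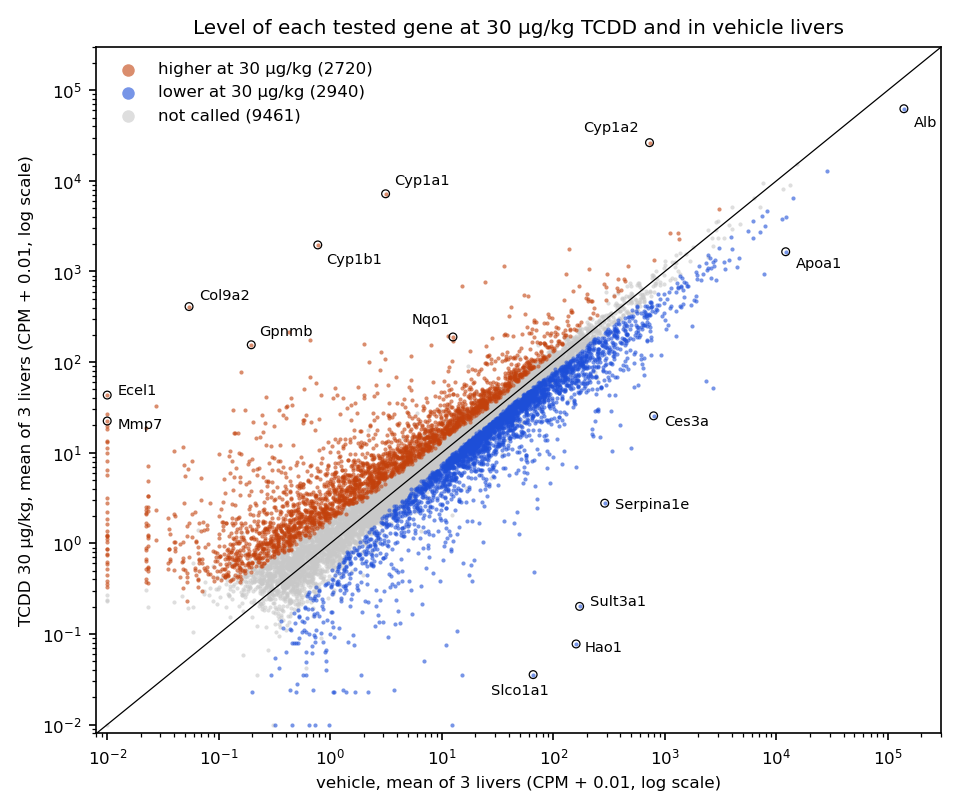
Mean level of each of the 15121 genes tested at 30 µg/kg TCDD (vertical) and in vehicle livers (horizontal), in CPM plus 0.01 on log scales, n = 3 livers each. Orange and blue mark the 2720 genes called higher and the 2940 called lower, grey the rest, and the line marks equal levels. Cyp1a1, Cyp1b1, Cyp1a2 and Col9a2 lie far above the line and Hao1, Sult3a1 and Slco1a1 far below it.

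Nearly all genes of the AhR battery rose. Of its 11 members, all of which were tested, 10 were called higher. Aldh3a1, near 0 in vehicle livers, is among them, and the low-count filter favours such calls. Cyp1a1 (chromosome 9, 57687928 to 57703824, plus strand, the gene's span in GENCODE on GRCm38), the hydrocarbon-metabolising P450, had 6938, 7943 and 6721 CPM at 30 µg/kg, against 3.69, 3.19 and 2.49 CPM in vehicle livers (log2 fold change 11.17, SE 0.33, adjusted p = 2.18e-18). Cyp1b1, its mostly extrahepatic relative, had 2067, 1283 and 2543 CPM at 30 µg/kg, against 0.821, 0.784 and 0.682 CPM in vehicle livers (log2 fold change 11.32, SE 0.39, adjusted p = 2.82e-17). The TCDD livers stood far above the vehicle livers for both genes without overlap. Cyp1a2, a P450 that the liver already makes without inducer, had 28400, 27070 and 23750 CPM at 30 µg/kg, against 777, 664 and 743 CPM in vehicle livers (log2 fold change 5.18, SE 0.26, adjusted p = 5.4e-14). The 11 members summed to 38220, 36870 and 33930 CPM at 30 µg/kg, against 930.2, 798 and 900.5 CPM in vehicle livers, and most of this sum is Cyp1a2. Ahrr, the AhR repressor, had 72.3, 81 and 80.1 CPM at 30 µg/kg, against 0.224, 0.105 and 0.120 CPM in vehicle livers (log2 fold change 8.92, SE 0.33, adjusted p = 1.1e-16). Tiparp, an ADP-ribosylase that damps AhR signalling, had 112, 77.1 and 157 CPM at 30 µg/kg, against 4.29, 5.80 and 5.86 CPM in vehicle livers (log2 fold change 4.44, SE 0.30, adjusted p = 5.87e-11). Both feedback genes were high in all 3 TCDD livers. Nqo1, a quinone reductase, had 211, 116 and 242 CPM at 30 µg/kg, against 12, 13.1 and 12.6 CPM in vehicle livers (log2 fold change 3.91, SE 0.20, adjusted p = 1.26e-13), with the lowest TCDD liver 8.81 times the highest vehicle liver. Aldh3a1, an aldehyde dehydrogenase, stayed low, at 0.882, 0.691 and 0.319 CPM at 30 µg/kg, against 0.0373, 0 and 0 CPM in vehicle livers, a pooled ratio 46.4-fold higher (95% counting interval 7.92 to 1874). The member that was not called was Ugt1a6b, a glucuronosyltransferase, with 30.9, 27.2 and 39.2 CPM at 30 µg/kg, against 22.2, 24.5 and 26.4 CPM in vehicle livers (adjusted p = 0.121, and called under RLE factors). It shares 60.6% of its exonic bases with another gene of the same strand, so its counts are uncertain. The receptor gene itself, Ahr, had 58.1, 43.3 and 59.2 CPM at 30 µg/kg, against 43.5, 60.1 and 41.0 CPM in vehicle livers (adjusted p = 0.577), and its groups overlapped.

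Genes of the NRF2 response, which guards against oxidants and supplies glutathione, rose almost throughout. Of 20 members tested, 19 were called higher (17 to 19 when any 1 library was left out), with a median log2 fold change of 1.92 beside -0.01 for all genes. Slc7a11 and Gpx2, near 0 in vehicle livers, are among the 19, and the low-count filter favours such calls. Nfe2l2, the gene of NRF2, had 301, 197 and 325 CPM at 30 µg/kg, against 77.9, 57.8 and 72.6 CPM in vehicle livers (log2 fold change 1.98, SE 0.16, adjusted p = 7.31e-10). Srxn1, the sulfiredoxin that repairs peroxiredoxins, had 659, 189 and 820.1 CPM at 30 µg/kg, against 56.5, 53.9 and 53.5 CPM in vehicle livers (log2 fold change 3.35, SE 0.32, adjusted p = 1.93e-08). Slc7a11, the cystine transporter, had 8.14, 0.730 and 26.2 CPM at 30 µg/kg, against 0.0746, 0 and 0.0401 CPM in vehicle livers, a pooled ratio 243-fold higher (95% counting interval 82.8 to 1180). In these genes replicate 2 at 30 µg/kg lay well below the other two, though still above every vehicle liver. Gpx2, the gastrointestinal glutathione peroxidase, had 36.2, 19.7 and 43.2 CPM at 30 µg/kg, against 0, 0.0523 and 0 CPM in vehicle livers, a pooled ratio 2257-fold higher (95% counting interval 405 to 89170). Cbr3, a carbonyl reductase, had 60.1, 25.2 and 64.9 CPM at 30 µg/kg, against 0.597, 0.523 and 0.602 CPM in vehicle livers (log2 fold change 6.42, SE 0.57, adjusted p = 1.24e-08). Abcc4, an exporter of conjugates and bile acids, had 129, 41.1 and 158 CPM at 30 µg/kg, against 3.73, 3.14 and 2.37 CPM in vehicle livers (log2 fold change 5.14, SE 0.48, adjusted p = 4.69e-08). Gstm3, a glutathione transferase, had 1574, 619.6 and 1217 CPM at 30 µg/kg, against 35.2, 35.8 and 36.6 CPM in vehicle livers (log2 fold change 4.98, SE 0.57, adjusted p = 8.12e-07). Gclm, the modifier subunit of the limiting enzyme, had 271, 208 and 284 CPM at 30 µg/kg, against 161, 176 and 176 CPM in vehicle livers (log2 fold change 0.57, SE 0.16, adjusted p = 0.00665). Gclc, the catalytic subunit, had 669, 341 and 969 CPM at 30 µg/kg, against 396, 258 and 462 CPM in vehicle livers (log2 fold change 0.83, SE 0.26, adjusted p = 0.0144). Its groups overlapped, and the call was lost without replicate 3 at 30 µg/kg (0.17), without vehicle replicate 2 (0.0876) and in the 6 libraries alone (0.105), as adjusted p. Abcc3 was the member not called, with 496, 414 and 468 CPM at 30 µg/kg, against 581, 527 and 589 CPM in vehicle livers. Among the NADPH-supplying genes of the pentose phosphate list, Pgd, phosphogluconate dehydrogenase, had 240.2, 116 and 273 CPM at 30 µg/kg, against 55.8, 59.4 and 65.1 CPM in vehicle livers (log2 fold change 1.80, SE 0.24, adjusted p = 2.74e-06). G6pdx, the entry enzyme of that pathway, had 7.35, 4.15 and 14.9 CPM at 30 µg/kg, against 11.1, 5.70 and 6.50 CPM in vehicle livers (adjusted p = 0.809) and overlapped.

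Of the 12 largest rises, 10 were of genes under 0.1 CPM in every vehicle liver. Col9a2 (chromosome 4, 121039385 to 121055322, plus strand) had 468, 429 and 333 CPM at 30 µg/kg, against 0, 0.0523 and 0.0803 CPM in vehicle livers, a pooled ratio 9830-fold higher (95% counting interval 3363 to 47670). Ecel1, an endopeptidase known from neurons, had 36.8, 44.4 and 48.5 CPM at 30 µg/kg, against 0 CPM in all 3 vehicle livers, at least 334-fold higher when the vehicle is set at 3 counts per library. Mmp7, a matrix metalloproteinase of epithelia, had 28.5, 6.45 and 32.2 CPM at 30 µg/kg, against 0 CPM in all 3 vehicle livers (at least 172-fold higher by the same floor). The groups do not overlap for any of the 12 by the rule that chose them. Pnliprp1, a pancreatic lipase-related protein, had 22.6, 49.5 and 8.03 CPM at 30 µg/kg, against 0 CPM in all 3 vehicle livers (at least 206-fold higher). Tgm3, an epidermal transglutaminase, had 27.6, 5.72 and 26.5 CPM at 30 µg/kg, against 0 CPM in all 3 vehicle livers (at least 154-fold higher). Dmbt1, a mucosal scavenger protein, had 15.2, 10.6 and 29.4 CPM at 30 µg/kg, against 0 CPM in all 3 vehicle livers (at least 142-fold higher). Replicate 2 was the highest TCDD liver for Pnliprp1 and the lowest for Mmp7, Tgm3 and Dmbt1. The transcription factor gene Hmx1, also at 0 in every vehicle library, had 11.9, 25.4 and 2.77 CPM at 30 µg/kg. The cadherin gene Cdh22, at 0 likewise, had 18.2, 8.41 and 12.8 CPM at 30 µg/kg, a call of edgeR (adjusted p = 0.0125) that DESeq2 did not make (0.169). Wnt10a, a Wnt ligand at 0 in every vehicle library too, had 15.6, 2.88 and 11.5 CPM at 30 µg/kg, a call of edgeR (adjusted p = 0.00385) that DESeq2 did not make (0.111). Cdh22 and Wnt10a could pass the low-count filter only through TCDD libraries, which favours such calls. Over all genes, 35 were under 0.1 CPM in every vehicle liver and at least 1 CPM in every TCDD liver, and 7 showed the reverse.

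Hao1 (chromosome 2, 134497361 to 134554368, minus strand) was among the largest falls, with 0.126, 0.0768 and 0 CPM at 30 µg/kg, against 112, 193 and 175 CPM in vehicle livers (log2 fold change -10.99, SE 0.48, adjusted p = 7.09e-15, with a log2 fold change of -11.60 without TCDD replicate 1). Slco1a1, an organic anion uptake transporter, had 0, 0.0768 and 0 CPM at 30 µg/kg, against 55.0, 100 and 42.7 CPM in vehicle livers, a pooled ratio 2156-fold lower (95% counting interval 597 to 17810). Sult3a1, a sulfotransferase gene that prevails in female mouse liver, had 0.0840, 0.384 and 0.106 CPM at 30 µg/kg, against 101, 274 and 142 CPM in vehicle livers. Its close copy Sult3a2 had 0 CPM in all 3 livers at 30 µg/kg, against 5.60, 23.9 and 7.50 CPM in vehicle livers (at least 92.5-fold lower by the floor of 3 counts per library). All 4 genes were close to silence in the TCDD livers. Adrb3, the beta-adrenergic receptor best known from fat, had 0.0840, 0.0384 and 0 CPM at 30 µg/kg, against 6.98, 8.05 and 5.90 CPM in vehicle livers, a pooled ratio 158-fold lower (95% counting interval 53.6 to 767), and 24.9% of its exonic sequence overlaps a gene of the other strand. Mmd2, a membrane progestin receptor family gene, had 0.126, 0.115 and 0.0532 CPM at 30 µg/kg, against 11.6, 16.1 and 13.4 CPM in vehicle livers (log2 fold change -6.99, SE 0.83, adjusted p = 1.58e-06). Serpina1e, an antitrypsin gene with close copies that reads could be split between, had 1.85, 4.69 and 1.75 CPM at 30 µg/kg, against 187, 515 and 165 CPM in vehicle livers (log2 fold change -6.69, SE 1.16, adjusted p = 0.000174, with a log2 fold change of -7.33 without TCDD replicate 2 and -5.97 without vehicle replicate 2).

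**Figure D2:**
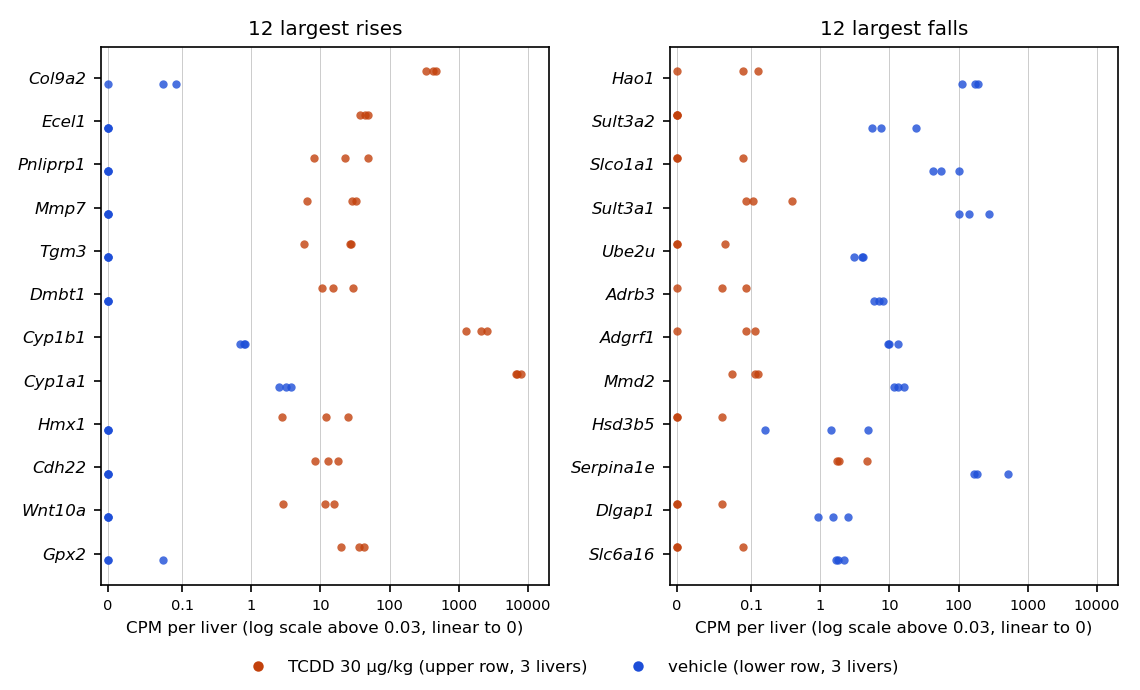
Level in CPM of the 12 genes with the largest rises (left) and the 12 with the largest falls (right), on an axis that is logarithmic above 0.03 and linear to 0. Orange points are the 3 livers at 30 µg/kg and blue points, just below them, the 3 vehicle livers. Of the rises, Cyp1b1 and Cyp1a1 have vehicle livers above 0.1 CPM, and of the falls Serpina1e keeps TCDD livers above 1 CPM.

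Most genes typical of other organs failed the low-count filter, which does not show that they are absent. Of 24 pancreatic acinar genes 6 passed the low-count filter, while 17, Cpa1, Pnlip and Ptf1a among them, failed it and 1 matched no symbol. Beside Pnliprp1, its relative Pnliprp2 was at 0 in the vehicle libraries and had 12.3, 2.38 and 2.55 CPM at 30 µg/kg. Ctrb1, of chymotrypsinogen, was at 0 there too and had 1.13, 0.461 and 2.02 CPM at 30 µg/kg. The elastase genes Cela1 and Cela2a went the other way: Cela1 had 7.14, 5.26 and 6.43 CPM at 30 µg/kg, against 16.6, 20.7 and 17.1 CPM in vehicle livers. Of 23 neuronal genes 4 were tested. Nptx1, a secreted pentraxin, had 222, 271 and 150.1 CPM at 30 µg/kg, against 0.560, 0.418 and 0.281 CPM in vehicle livers (log2 fold change 8.97, SE 0.40, adjusted p = 1.95e-14), while its relative Nptx2 was at 0 in all 6 libraries. Syp, of synaptic vesicles, had 1.05, 1.07 and 0.851 CPM at 30 µg/kg, against 1.08, 1.20 and 1.49 CPM in vehicle livers. Of 15 cartilage genes 5 were tested, Col9a2 among them. Col2a1, the main cartilage collagen, was at 0 in all 6 libraries, and Col9a1 and Col9a3, whose chains assemble with that of Col9a2, failed the filter. Of 21 epidermal genes 8 were tested, and Ovol1, an epithelial transcription factor, had 8.65, 7.57 and 8.03 CPM at 30 µg/kg, against 0 CPM in all 3 vehicle livers (at least 62.3-fold higher), with 22% of its exonic bases shared with the other strand. Of 24 gastrointestinal mucosa genes 11 were tested. Reg3b, an antimicrobial lectin of the gut, was at 0 in vehicle libraries and had 0.966, 0.499 and 4.04 CPM at 30 µg/kg. Lgals4, a gut galectin the vehicle livers already made, had 31.3, 18.6 and 32.5 CPM at 30 µg/kg, against 38.0, 18.3 and 30.4 CPM in vehicle livers. A gene that passed the filter only through its TCDD libraries had to differ, so the calls in these lists are not counted.

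Drug-metabolising genes outside the AhR battery fell more often than they rose. Of 37 P450 and conjugation genes 18 were called lower and 4 higher, with a median log2 fold change of -0.81. Ces3a, a carboxylesterase of the endoplasmic reticulum, had 1.18, 73.9 and 1.44 CPM at 30 µg/kg, against 801, 813 and 765 CPM in vehicle livers (log2 fold change -4.95, SE 0.99, adjusted p = 0.000631, with a log2 fold change of -4.36 without TCDD replicate 1 and -9.25 without TCDD replicate 2). Its neighbour Ces3b had 0.756, 43.4 and 0.904 CPM at 30 µg/kg, against 239, 329 and 214 CPM in vehicle livers (log2 fold change -4.10, SE 0.95, adjusted p = 0.00223, with a log2 fold change of -3.52 without TCDD replicate 1 and -8.30 without TCDD replicate 2). Replicate 2 at 30 µg/kg held over 40 times the level of the other two for both, and was still far below vehicle. Fitted without the other 21 libraries of the series, the adjusted p was 0.064 for Ces3a and 0.0849 for Ces3b. Cyp2c37, a P450 of the CYP2C family, had 156, 213 and 162 CPM at 30 µg/kg, against 698, 659.6 and 702 CPM in vehicle livers (log2 fold change -1.96, SE 0.35, adjusted p = 0.000102). Higher at 30 µg/kg were 4 genes, of which Cyp2a5, the coumarin hydroxylase, had 2448, 1172 and 1721 CPM at 30 µg/kg, against 169.5, 115 and 131 CPM in vehicle livers (log2 fold change 3.68, SE 0.38, adjusted p = 6.58e-08), with no overlap between the groups. Cyp2c29 had 642, 2303 and 804 CPM at 30 µg/kg, against 1233, 1193 and 1365 CPM in vehicle livers (adjusted p = 0.977), with replicate 2 alone above vehicle. Genes of the CYP2, CES, SULT and UGT families have close copies, between which the counting could split or lose reads.

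Among genes that differ between the sexes in mouse liver some fell and some rose on both sides of that bias. Of 18 female-predominant genes 8 fell and 2 rose, and of 20 male-predominant genes 8 fell and 5 rose. The male-predominant list summed to 1086, 1790 and 1089 CPM at 30 µg/kg, against 876, 1567 and 930.2 CPM in vehicle livers, and the groups overlapped. Cyp3a44, a female-predominant P450, had 2.77, 6.41 and 6.17 CPM at 30 µg/kg, against 49.6, 78.9 and 39.5 CPM in vehicle livers (log2 fold change -3.45, SE 0.88, adjusted p = 0.00468). Cyp2b9, also female-predominant, had 216, 273 and 286 CPM at 30 µg/kg, against 654, 589 and 662 CPM in vehicle livers (log2 fold change -1.30, SE 0.23, adjusted p = 8.57e-05). Neither overlapped between groups. The male-predominant Elovl3, a fatty acid elongase, had 0.168, 0.422 and 0.532 CPM at 30 µg/kg, against 14.5, 25.1 and 16.6 CPM in vehicle livers (log2 fold change -5.65, SE 1.27, adjusted p = 0.0017). Cyp2d9, also male-predominant, had 412, 488 and 322 CPM at 30 µg/kg, against 51.9, 39.3 and 34.1 CPM in vehicle livers (log2 fold change 3.29, SE 0.35, adjusted p = 1.51e-07). In the growth hormone axis, which sets much of this bias, 12 of 19 genes fell. Ghr, the receptor, had 144, 203 and 122 CPM at 30 µg/kg, against 352, 378 and 341 CPM in vehicle livers (log2 fold change -1.19, SE 0.19, adjusted p = 1.99e-05). Stat5b, its transcription factor, had 47.9, 43.2 and 43.6 CPM at 30 µg/kg, against 92.8, 70.9 and 96.6 CPM in vehicle livers (log2 fold change -0.95, SE 0.15, adjusted p = 1.43e-05). Both were lower in every TCDD liver. Igf1, the hormone that the liver releases in response, had 208, 528 and 214 CPM at 30 µg/kg, against 612, 682 and 660.5 CPM in vehicle livers (log2 fold change -1.04, SE 0.26, adjusted p = 0.0029, with a log2 fold change of -1.63 without TCDD replicate 2), with replicate 2 nearest to vehicle. Igfbp2, a carrier of IGF1, had 93.9, 48.8 and 16.6 CPM at 30 µg/kg, against 547, 518 and 520.2 CPM in vehicle livers (log2 fold change -3.31, SE 0.45, adjusted p = 5.64e-06, with a log2 fold change of -3.98 without TCDD replicate 1).

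Most bile acid synthesis genes fell, as did Slc10a1 and Abcb11, the main carriers of uptake and canalicular export. Of 16 synthesis genes 11 were called lower and the other 5 were not called, with a median log2 fold change of -1.11. Cyp8b1, the sterol hydroxylase that makes cholic acid, had 272, 239 and 226 CPM at 30 µg/kg, against 615, 462 and 597 CPM in vehicle livers (log2 fold change -1.18, SE 0.37, adjusted p = 0.0145, and adjusted p = 0.0608 without replicate 3 at 30 µg/kg). Cyp27a1, of the acidic pathway, had 208, 211 and 196 CPM at 30 µg/kg, against 464, 479 and 426 CPM in vehicle livers (log2 fold change -1.16, SE 0.18, adjusted p = 1.32e-05). Cyp2c70, which makes the muricholic acids of mice, had 94.0, 156 and 133 CPM at 30 µg/kg, against 460.2, 623 and 524 CPM in vehicle livers (log2 fold change -2.07, SE 0.27, adjusted p = 1.37e-06). For Cyp27a1 and Cyp2c70 every TCDD liver lay below every vehicle liver by a wide gap. Cyp7a1, the rate-limiting enzyme, varied within both groups, at 29.6, 58.3 and 21.1 CPM at 30 µg/kg, against 115, 220.4 and 61.4 CPM in vehicle livers (log2 fold change -1.86, SE 0.68, adjusted p = 0.0373, with a log2 fold change of -1.28 without vehicle replicate 2), and its call was lost without replicate 1 (0.124) or 3 (0.142) at 30 µg/kg, or without vehicle replicate 1 (0.0581) or 2 (0.181), as adjusted p. Of 19 uptake and efflux transporters 9 fell and 1, Abcc4, rose, while 8 fell and 4 rose with RLE factors or in DESeq2. Slc10a1, the sodium-dependent uptake carrier NTCP, had 192, 328 and 220.2 CPM at 30 µg/kg, against 738, 754 and 694 CPM in vehicle livers (log2 fold change -1.56, SE 0.21, adjusted p = 2.69e-06). Abcb11, the bile salt export pump, had 382, 418 and 306 CPM at 30 µg/kg, against 734, 801 and 752 CPM in vehicle livers (log2 fold change -1.05, SE 0.19, adjusted p = 9.17e-05). Abcc2, the canalicular conjugate exporter, had 722, 618 and 702 CPM at 30 µg/kg, against 587, 597 and 612 CPM in vehicle livers (adjusted p = 0.411). Of 22 metabolic nuclear receptors 12 fell. Ppara, the fatty acid receptor, had 43.2, 58.6 and 41.0 CPM at 30 µg/kg, against 96.5, 109.8 and 118 CPM in vehicle livers (log2 fold change -1.18, SE 0.27, adjusted p = 0.00138). Nr1h4, the bile acid receptor FXR, had 96.7, 104 and 87 CPM at 30 µg/kg, against 131, 115 and 131 CPM in vehicle livers (adjusted p = 0.0667). Of 15 hepatocyte transcription factors 7 fell. Hnf4a, central to hepatocyte identity, had 473, 626 and 601 CPM at 30 µg/kg, against 622, 634 and 694 CPM in vehicle livers (adjusted p = 0.421). Foxa3, a forkhead factor, had 23.6, 20.2 and 18.2 CPM at 30 µg/kg, against 66.8, 116 and 104 CPM in vehicle livers (log2 fold change -2.21, SE 0.36, adjusted p = 5.04e-05).

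Lipid genes fell in synthesis, oxidation and lipoprotein output, while those of uptake and storage split, with 7 of 24 higher and 8 lower. Of 23 genes of fatty acid and triglyceride synthesis 15 were called lower and 1 higher (median log2 fold change -1.25). Fasn, the fatty acid synthase, had 66.7, 124 and 61.3 CPM at 30 µg/kg, against 323, 637 and 432 CPM in vehicle livers (log2 fold change -2.46, SE 0.37, adjusted p = 1.89e-05). Fads1, a desaturase, had 82.7, 109 and 69.2 CPM at 30 µg/kg, against 691, 616 and 597 CPM in vehicle livers (log2 fold change -2.87, SE 0.18, adjusted p = 4.89e-12). Dgat2, which closes triglyceride synthesis, had 148, 239.6 and 114 CPM at 30 µg/kg, against 361, 462 and 375 CPM in vehicle livers (log2 fold change -1.25, SE 0.20, adjusted p = 2.97e-05). Srebf1, the regulator of this set, had 54.5, 113 and 49.2 CPM at 30 µg/kg, against 159, 187 and 209 CPM in vehicle livers (log2 fold change -1.36, SE 0.34, adjusted p = 0.00333). The TCDD livers were lower in each without overlap.

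In fatty acid oxidation 14 of 28 genes fell and 3 rose. Fgf21, a fasting and stress hormone placed on this list, had 49.4, 20.4 and 37.4 CPM at 30 µg/kg, against 4.03, 2.20 and 3.73 CPM in vehicle livers (log2 fold change 3.41, SE 0.89, adjusted p = 0.00526). Cd36, the fatty acid translocase, had 481, 384 and 736 CPM at 30 µg/kg, against 38.5, 60.8 and 78.5 CPM in vehicle livers (log2 fold change 3.17, SE 0.27, adjusted p = 1.33e-09). Lpl, a lipase that adult hepatocytes normally make little of, had 169.5, 116 and 115 CPM at 30 µg/kg, against 15.9, 16.9 and 20.6 CPM in vehicle livers (log2 fold change 2.91, SE 0.46, adjusted p = 4.67e-05). All 3 TCDD livers exceeded all vehicle livers for both. Plin2, the main droplet coat protein of liver, had 794, 489 and 937 CPM at 30 µg/kg, against 831, 701 and 892 CPM in vehicle livers (adjusted p = 0.799), and its groups overlapped.

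Of 25 lipoprotein genes 17 fell and 1 rose. Apoa1, the main protein of HDL, had 1967, 1969 and 1020 CPM at 30 µg/kg, against 8964, 11550 and 15850 CPM in vehicle livers (log2 fold change -2.88, SE 0.36, adjusted p = 1.01e-06). Apob, the structural protein of VLDL, had 1957, 2069 and 3068 CPM at 30 µg/kg, against 2973, 3781 and 3510 CPM in vehicle livers (adjusted p = 0.0726). Of 23 cholesterol synthesis genes 16 were called lower and 7 not called, but 10 were called lower without replicate 1 or without replicate 3 at 30 µg/kg. Sc5d, a late desaturase, had 132, 177 and 102 CPM at 30 µg/kg, against 459.6, 526 and 473 CPM in vehicle livers (log2 fold change -1.82, SE 0.24, adjusted p = 1.55e-06). Srebf2, the regulator, had 41.4, 54.3 and 40.6 CPM at 30 µg/kg, against 94.3, 137 and 106 CPM in vehicle livers (log2 fold change -1.31, SE 0.19, adjusted p = 8.47e-06). Sqle, the squalene epoxidase, had 27.4, 48.6 and 42.6 CPM at 30 µg/kg, against 39.6, 147 and 55.4 CPM in vehicle livers. Its groups overlapped, and vehicle replicate 2 was the highest liver.

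In glucose metabolism Pklr fell, and Hk2 and Pkm rose. Hk2, a hexokinase of other tissues, had 5.96, 6.11 and 5.32 CPM at 30 µg/kg, against 2.39, 1.88 and 3.41 CPM in vehicle livers (log2 fold change 1.17, SE 0.36, adjusted p = 0.0115, and adjusted p = 0.0562 without vehicle replicate 2). Pklr, the liver pyruvate kinase, had 21.8, 41.8 and 27.4 CPM at 30 µg/kg, against 271, 241 and 239.5 CPM in vehicle livers (log2 fold change -3.04, SE 0.31, adjusted p = 6.14e-08). Pkm, the other pyruvate kinase gene, had 46.0, 37.6 and 43.3 CPM at 30 µg/kg, against 10.9, 6.33 and 8.83 CPM in vehicle livers (log2 fold change 2.28, SE 0.26, adjusted p = 1.88e-07). The groups did not overlap in any of the 3. Pfkp, a phosphofructokinase of other tissues, had 6.21, 4.15 and 4.52 CPM at 30 µg/kg, against 3.77, 2.67 and 3.21 CPM in vehicle livers (adjusted p = 0.0778). Pklr shares 22% of its exonic bases with the other strand and Pkm 15.3% with the same strand. Slc2a2, the hepatocyte glucose transporter, had 53.4, 95 and 33.3 CPM at 30 µg/kg, against 218, 202 and 217 CPM in vehicle livers (log2 fold change -1.81, SE 0.30, adjusted p = 3.97e-05). Of 26 glycolysis genes 9 fell and 5 rose, and 5 fell without replicate 1 or 3 at 30 µg/kg, while 3 rose without vehicle replicate 2. Of 19 genes of gluconeogenesis and glycogen 9 fell and 2 rose. Ppp1r3b, a glycogen-targeting subunit, had 46.6, 62.5 and 50.6 CPM at 30 µg/kg, against 167, 441 and 202 CPM in vehicle livers (log2 fold change -2.34, SE 0.33, adjusted p = 5.87e-06). Fbp1, fructose bisphosphatase, had 2461, 2258 and 2193 CPM at 30 µg/kg, against 1457, 1221 and 1316 CPM in vehicle livers (log2 fold change 0.79, SE 0.18, adjusted p = 0.00137).

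Most genes of amino acid breakdown fell. Of 31 members 24 were called lower and 1 higher, with a median log2 fold change of -1.23. Hal, which degrades histidine, had 51.0, 195 and 79.7 CPM at 30 µg/kg, against 598, 598 and 649 CPM in vehicle livers (log2 fold change -2.50, SE 0.37, adjusted p = 1.25e-05, with a log2 fold change of -3.24 without TCDD replicate 2). Aass, which degrades lysine, had 54.1, 115 and 64 CPM at 30 µg/kg, against 312, 333 and 297 CPM in vehicle livers (log2 fold change -2.01, SE 0.26, adjusted p = 1.06e-06). Replicate 2 at 30 µg/kg was nearest to vehicle in both. Tdo2, tryptophan dioxygenase, was the member that rose, with 1276, 1316 and 1394 CPM at 30 µg/kg, against 722, 769 and 892 CPM in vehicle livers (log2 fold change 0.74, SE 0.20, adjusted p = 0.0045). All 8 tested genes of glyoxylate and glycine metabolism fell (8 under RLE factors and in DESeq2 as well), and the ninth on the list, Dao, failed the low-count filter. Beside Hao1, Prodh2, of hydroxyproline breakdown, had 43.7, 91.0 and 23.9 CPM at 30 µg/kg, against 288, 248 and 269 CPM in vehicle livers (log2 fold change -2.34, SE 0.31, adjusted p = 2.01e-06, with a log2 fold change of -2.99 without TCDD replicate 2). Agxt, which detoxifies glyoxylate, had 136, 266 and 107 CPM at 30 µg/kg, against 469, 412 and 469 CPM in vehicle livers (log2 fold change -1.41, SE 0.31, adjusted p = 0.000817). 

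In the urea cycle list 9 of 13 genes fell and 1 rose. Cps1, the entry enzyme, had 722, 1532 and 912 CPM at 30 µg/kg, against 3304, 3623 and 3526 CPM in vehicle livers (log2 fold change -1.72, SE 0.33, adjusted p = 0.000203). Otc, the next step, had 88.8, 159 and 85.8 CPM at 30 µg/kg, against 418, 444 and 499.5 CPM in vehicle livers (log2 fold change -2.03, SE 0.23, adjusted p = 1.59e-07). Arg1, arginase, had 1228, 1306 and 1304 CPM at 30 µg/kg, against 1183, 1216 and 1095 CPM in vehicle livers (adjusted p = 0.603), a difference that was not called although the groups did not overlap. Of 26 one-carbon genes 16 fell and 3 rose. Mat1a, which makes S-adenosylmethionine in adult liver, had 775, 1438 and 1134 CPM at 30 µg/kg, against 3580, 4882 and 4892 CPM in vehicle livers (log2 fold change -2.00, SE 0.23, adjusted p = 2.24e-07). Gldc, of glycine cleavage, had 46.3, 54.9 and 53.9 CPM at 30 µg/kg, against 274, 256 and 270.4 CPM in vehicle livers (log2 fold change -2.37, SE 0.19, adjusted p = 4.39e-10). Bhmt, betaine-homocysteine methyltransferase, had 71.8, 136 and 80.0 CPM at 30 µg/kg, against 378, 886 and 607 CPM in vehicle livers (log2 fold change -2.70, SE 0.38, adjusted p = 7.85e-06). Mat2a, the form of non-hepatic and fetal tissue, had 49.6, 49.7 and 68.1 CPM at 30 µg/kg, against 57.1, 52.8 and 52.6 CPM in vehicle livers (adjusted p = 0.88).

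The largest losses of level were in genes of secreted plasma proteins. Of 28 abundant plasma protein genes 22 fell, and their summed level was 84520, 129000 and 80790 CPM at 30 µg/kg, against 158600, 200000 and 274700 CPM in vehicle livers. Scaled to exon length as well (RPKM), the losses in level were largest for Alb, albumin, at 26680 ± 7780 RPKM at 30 µg/kg and 59400 ± 20980 RPKM in vehicle livers (adjusted p = 0.00228). Apoa2, of HDL, followed at 6981 ± 4672 RPKM at 30 µg/kg and 20890 ± 6068 RPKM in vehicle livers (adjusted p = 0.000476, with a log2 fold change of -2.28 without TCDD replicate 2 in place of -1.58). The gains in level were largest for Cyp1a2, at 13120 ± 1192 RPKM at 30 µg/kg and 362 ± 28.7 RPKM in vehicle livers, and Cyp1a1, at 2584 ± 234 RPKM at 30 µg/kg and 1.12 ± 0.217 RPKM in vehicle livers. Ahsg, fetuin-A, had 3383, 5057 and 3424 CPM at 30 µg/kg, against 9967, 11920 and 14650 CPM in vehicle livers (log2 fold change -1.62, SE 0.20, adjusted p = 8.67e-07). Serpina3k, a protease inhibitor with close copies, had 178, 1913 and 689 CPM at 30 µg/kg, against 4277, 11150 and 8031 CPM in vehicle livers (log2 fold change -3.08, SE 0.58, adjusted p = 0.000287, with a log2 fold change of -4.18 without TCDD replicate 2). Every TCDD liver lay below every vehicle liver in both. Trf, transferrin, had 3767, 3943 and 3204 CPM at 30 µg/kg, against 2191, 3039 and 3673 CPM in vehicle livers (adjusted p = 0.476), though 63.5% of its exonic bases are shared with another gene of the same strand. Hamp, hepcidin, the regulator of iron uptake, had 179.5, 255 and 145 CPM at 30 µg/kg, against 1817, 666 and 1320 CPM in vehicle livers (log2 fold change -2.71, SE 0.36, adjusted p = 2.14e-06). Tfrc, the transferrin receptor, had 54.3, 44.5 and 76.3 CPM at 30 µg/kg, against 11.8, 31.4 and 13.5 CPM in vehicle livers (log2 fold change 1.63, SE 0.33, adjusted p = 0.000506).

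Of 31 genes of coagulation and fibrinolysis 17 fell and 8 rose. Fgg, a fibrinogen chain, had 734, 1308 and 2219 CPM at 30 µg/kg, against 4205, 4110 and 5573 CPM in vehicle livers (log2 fold change -1.70, SE 0.29, adjusted p = 4.38e-05). Plg, plasminogen, had 601, 1035 and 755 CPM at 30 µg/kg, against 2958, 2746 and 2997 CPM in vehicle livers (log2 fold change -1.86, SE 0.20, adjusted p = 9.39e-08). Among those that rose Plaur, the urokinase receptor, had 4.58, 2.07 and 4.25 CPM at 30 µg/kg, against 0.373, 0.471 and 0.642 CPM in vehicle livers (log2 fold change 2.86, SE 0.51, adjusted p = 9.43e-05). Of 29 complement genes tested 15 fell and 2 rose, and those that rose encode receptors carried by leukocytes. C5ar1 had 18, 10.8 and 13.8 CPM at 30 µg/kg, against 1.38, 1.46 and 1.16 CPM in vehicle livers (log2 fold change 3.41, SE 0.46, adjusted p = 3.65e-06). C3ar1 had 25.5, 10.4 and 19.1 CPM at 30 µg/kg, against 4.07, 3.45 and 2.45 CPM in vehicle livers (log2 fold change 2.46, SE 0.42, adjusted p = 8.37e-05). 

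Acute phase calls rested in part on 1 library. Saa1, a serum amyloid gene with near-identical copies, had 113, 190.0 and 1997 CPM at 30 µg/kg, against 31.9, 20.7 and 20.5 CPM in vehicle livers. Saa2 had 70, 116 and 1895 CPM at 30 µg/kg, against 22.9, 9.41 and 12.8 CPM in vehicle livers. Replicate 3 at 30 µg/kg held over 10 times the level of the other two in both. Their adjusted p of 0.00806 and 0.00656 became 0.0973 and 0.104 without that library, and their log2 fold changes of 4.98 and 5.52 became 2.66 and 2.65, and the list's count of 6 higher among 22 genes became 3. Its count of 6 lower became 3 without replicate 1 at 30 µg/kg. Saa3, the form of macrophages and other extrahepatic cells, had 20.8, 21.7 and 41.1 CPM at 30 µg/kg, against 6.49, 3.50 and 4.74 CPM in vehicle livers (log2 fold change 2.49, SE 0.58, adjusted p = 0.00202).

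Retinoid and thyroid hormone genes fell where they were called, with 1 exception. Of 22 retinoid genes 10 fell and 1 rose. Rdh11, a retinol dehydrogenase, had 21.7, 23.7 and 23.1 CPM at 30 µg/kg, against 92.8, 86.9 and 85.9 CPM in vehicle livers (log2 fold change -1.95, SE 0.30, adjusted p = 1.89e-05). Rbp4, the retinol carrier of plasma, had 3994, 4115 and 2482 CPM at 30 µg/kg, against 2983, 2630 and 2964 CPM in vehicle livers (adjusted p = 0.277). Of 11 thyroid hormone genes 6 fell. Serpina7, of thyroxine-binding globulin, had 3.15, 1.34 and 16.2 CPM at 30 µg/kg, against 40.0, 48.6 and 73.9 CPM in vehicle livers (log2 fold change -3.01, SE 0.60, adjusted p = 0.000625, with a log2 fold change of -4.57 without TCDD replicate 3). Replicate 3 was the TCDD liver nearest to vehicle for Serpina7. Of 25 heme and iron genes 8 fell and 3 rose. Hmox1, the inducible heme oxygenase, had 93.5, 54.5 and 90.8 CPM at 30 µg/kg, against 31.0, 15 and 19.2 CPM in vehicle livers (log2 fold change 1.87, SE 0.42, adjusted p = 0.00159). Alad, of heme synthesis, had 73.6, 95 and 53.3 CPM at 30 µg/kg, against 182, 152 and 161 CPM in vehicle livers (log2 fold change -1.16, SE 0.24, adjusted p = 0.000475). Urod, uroporphyrinogen decarboxylase, had 69.0, 91.1 and 55.9 CPM at 30 µg/kg, against 77.1, 71.4 and 84.8 CPM in vehicle livers (adjusted p = 0.652).

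Most periportal genes fell, and the pericentral list was mixed. Of 18 periportal genes 12 fell and 2 rose, and of 19 pericentral genes 6 fell, 4 rose and 9 were not called, and whether these lists differ was not tested. Gls2, the periportal glutaminase, had 69.9, 177 and 62.9 CPM at 30 µg/kg, against 538, 404 and 367 CPM in vehicle livers (log2 fold change -2.08, SE 0.39, adjusted p = 0.000191, with a log2 fold change of -2.72 without TCDD replicate 2). Glul, the pericentral glutamine synthetase, had 685, 1370 and 956 CPM at 30 µg/kg, against 1079, 1609 and 1215 CPM in vehicle livers (adjusted p = 0.314). Lect2, a Wnt target near the central vein, had 20.3, 29.0 and 9.89 CPM at 30 µg/kg, against 112, 118 and 111 CPM in vehicle livers (log2 fold change -2.52, SE 0.24, adjusted p = 1.44e-08). Slc13a3, a dicarboxylate transporter on the same list, had 98.4, 116 and 138 CPM at 30 µg/kg, against 28.6, 25.1 and 22.9 CPM in vehicle livers (log2 fold change 2.20, SE 0.25, adjusted p = 2.27e-07). 

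Clock genes differed in both directions: 9 of 21 rose and 6 fell. Dbp, an output factor of the clock, had 49.5, 85.8 and 20.8 CPM at 30 µg/kg, against 0.970, 1.05 and 1.28 CPM in vehicle livers (log2 fold change 5.56, SE 0.51, adjusted p = 3.59e-08). Per2, a repressor, had 21, 42.3 and 11.7 CPM at 30 µg/kg, against 1.98, 3.56 and 2.25 CPM in vehicle livers (log2 fold change 3.29, SE 0.46, adjusted p = 8.54e-06, with a log2 fold change of 2.67 without TCDD replicate 2). Arntl, the activator BMAL1, had 2.60, 1.46 and 9.15 CPM at 30 µg/kg, against 33.9, 28.6 and 34.1 CPM in vehicle livers (log2 fold change -2.91, SE 0.50, adjusted p = 0.000101, with a log2 fold change of -3.96 without TCDD replicate 3). Npas2, a partner of BMAL1, had 0.504, 0.154 and 1.06 CPM at 30 µg/kg, against 22.2, 11.6 and 20.9 CPM in vehicle livers (log2 fold change -5.05, SE 0.58, adjusted p = 5.04e-07, with a log2 fold change of -5.76 without TCDD replicate 3). The groups were far apart in all 4. Dbp shares 18% of its exonic bases with the other strand. The hour of collection of each liver is not given in the sources used here.

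Few members of large housekeeping sets were called with TMM factors. Of 38 nuclear respiratory chain genes 4 fell, and 2 fell without TCDD replicate 1 or vehicle replicate 1 and 1 without TCDD replicate 3. Of 32 proteasome genes 3 fell, 5 without TCDD replicate 2 and 1 without TCDD replicate 1 or 3. Of 39 cytosolic ribosomal protein genes 4 rose with TMM factors, against 7 without vehicle replicate 3, 1 without TCDD replicate 1 or vehicle replicate 2, 0 without vehicle replicate 1, and 10 with RLE factors. With TMM factors the 3 shares lie below 18% and 19.4%. The 10 ribosomal calls with RLE factors cannot be read against 18%, which holds for TMM factors. Over all tested genes 3345 were called higher with RLE factors, against 2720 with TMM factors. Cox6a1, a subunit of cytochrome oxidase, had 518, 547 and 353 CPM at 30 µg/kg, against 207, 216 and 234 CPM in vehicle livers (log2 fold change 1.11, SE 0.26, adjusted p = 0.00158). Atp5b, of ATP synthase, had 1378, 1335 and 1105 CPM at 30 µg/kg, against 1144, 1227 and 1297 CPM in vehicle livers (adjusted p = 0.824). Ribosomal protein genes have many near-identical pseudogenes, and 6 of the 13 genes of mitochondrial DNA failed the low-count filter. In the tricarboxylic acid cycle list 9 of 22 genes fell.

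**Figure D3:**
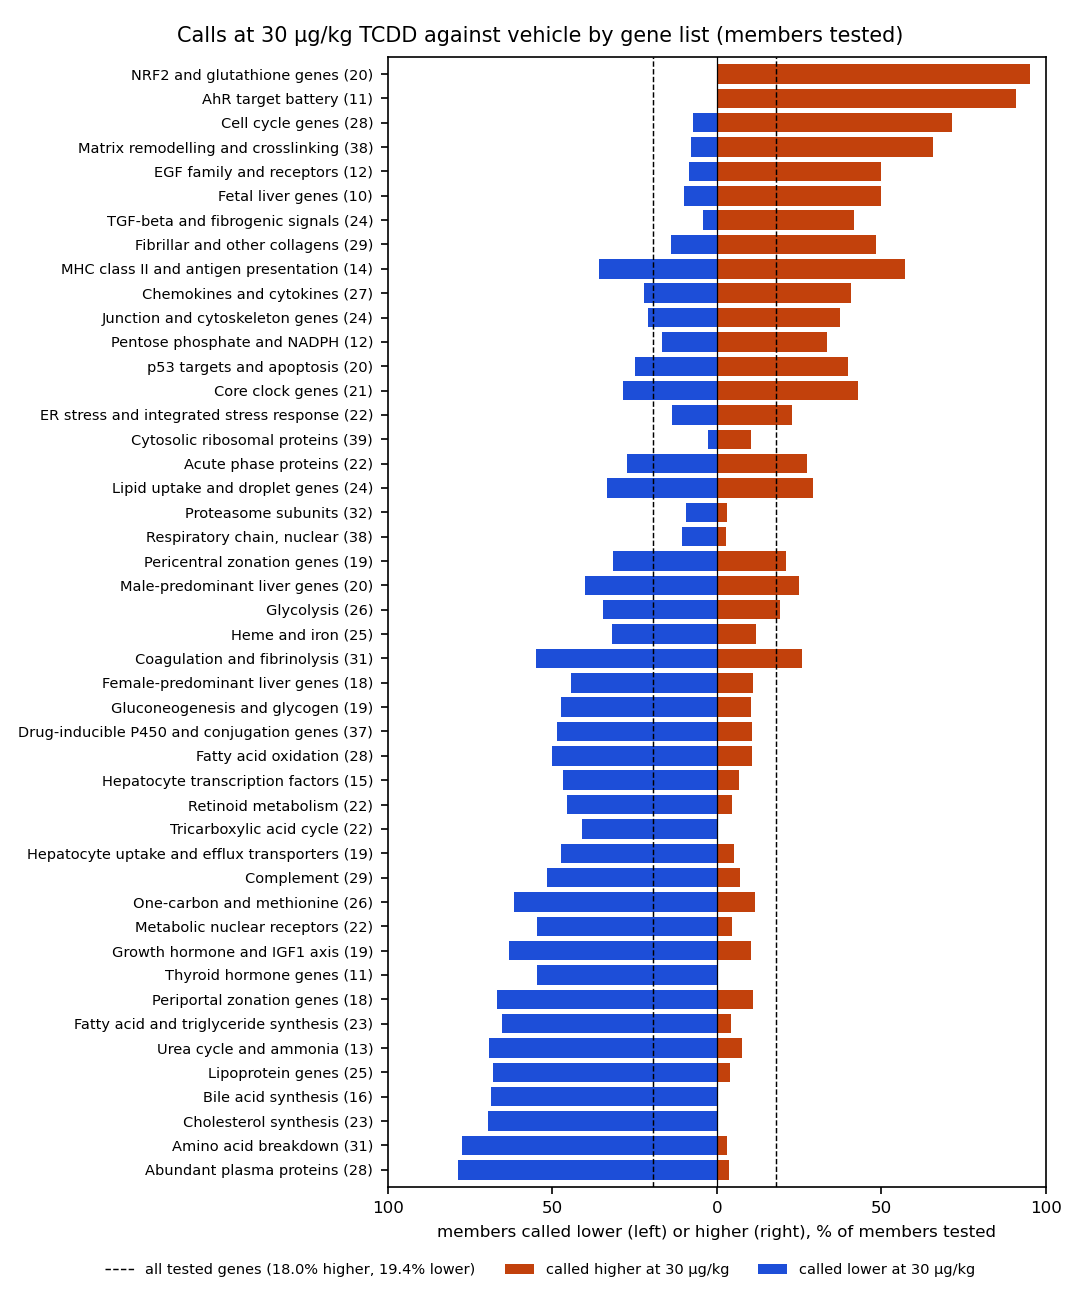
Share of the tested members of each gene list called higher (orange, right) or lower (blue, left) at 30 µg/kg TCDD against vehicle, for lists with at least 10 members tested (genes of other organs left out), whose number stands in parentheses. Dashed lines mark the shares among all tested genes, 18% higher and 19.4% lower. NRF2 and AhR genes lie at the top and plasma protein and amino acid breakdown genes at the bottom.

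Genes of the extracellular matrix rose in large part. Of 29 collagen genes tested 14 rose and 4 fell, and of 38 genes of matrix remodelling and crosslinking 25 rose and 3 fell. Col9a2 and Mmp7, near 0 in every vehicle liver, are among those that rose, and the low-count filter favours such calls. Col1a1, the main fibrillar collagen of scar, had 149.8, 54.8 and 62.6 CPM at 30 µg/kg, against 12.2, 7.79 and 14.6 CPM in vehicle livers (log2 fold change 2.94, SE 0.48, adjusted p = 7.25e-05). Col3a1 had 209, 84.1 and 97.7 CPM at 30 µg/kg, against 46.5, 25.1 and 44.4 CPM in vehicle livers (log2 fold change 1.75, SE 0.37, adjusted p = 0.000733). Replicate 1 at 30 µg/kg was the highest in both, and the groups did not overlap. Col4a3, a basement membrane collagen best known from kidney, had 12.3, 16.2 and 7.07 CPM at 30 µg/kg, against 0.261, 0.262 and 0.321 CPM in vehicle livers (log2 fold change 5.37, SE 0.43, adjusted p = 7.64e-10). Col18a1, which hepatocytes make in quantity, had 319.7, 545 and 337 CPM at 30 µg/kg, against 1369, 1393 and 1467 CPM in vehicle livers (log2 fold change -1.81, SE 0.24, adjusted p = 1.72e-06). The collagen list summed to 1727, 1498 and 1197 CPM at 30 µg/kg, against 1736, 1671 and 1861 CPM in vehicle livers, a sum to which Col18a1 alone gave most of the vehicle level.

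Mmp12, the macrophage elastase, had 58.3, 12.2 and 30.2 CPM at 30 µg/kg, against 0.560, 0.262 and 0.522 CPM in vehicle livers (log2 fold change 6.17, SE 0.72, adjusted p = 9.71e-07, with a log2 fold change of 5.54 without TCDD replicate 1). Mmp13, an interstitial collagenase, had 28.4, 8.68 and 13.7 CPM at 30 µg/kg, against 0.410, 0.262 and 0.0401 CPM in vehicle livers (log2 fold change 6.11, SE 0.57, adjusted p = 1.14e-08, with a log2 fold change of 6.89 without vehicle replicate 1). Timp1, an inhibitor of these enzymes, had 5.37, 1.73 and 4.15 CPM at 30 µg/kg, against 0.336, 0.0523 and 0.161 CPM in vehicle livers (log2 fold change 4.23, SE 0.60, adjusted p = 4.72e-06, with a log2 fold change of 5 without vehicle replicate 1). Lox, which crosslinks collagen, had 7.30, 1.80 and 5.58 CPM at 30 µg/kg, against 0.298, 0.105 and 0.401 CPM in vehicle livers (log2 fold change 4.11, SE 0.53, adjusted p = 1.34e-06). In these 4 genes replicate 2 was the lowest of the TCDD livers and still exceeded every vehicle liver. Loxl4, a lysyl oxidase relative, went the other way, with 0.714, 1.15 and 1.17 CPM at 30 µg/kg, against 18, 25.4 and 26.6 CPM in vehicle livers (log2 fold change -4.52, SE 0.32, adjusted p = 6.6e-11). Fn1, fibronectin, much of which hepatocytes make, fell as well, with 637, 1011 and 1181 CPM at 30 µg/kg, against 2012, 2325 and 2256 CPM in vehicle livers (log2 fold change -1.22, SE 0.19, adjusted p = 2.12e-05). 

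Of 24 TGF-beta and fibrogenic genes 10 rose. Tgfb2 had 21.1, 16.1 and 21.9 CPM at 30 µg/kg, against 0.336, 0.262 and 0.321 CPM in vehicle livers (log2 fold change 5.96, SE 0.44, adjusted p = 1.35e-10). Tgfb1 had 15.5, 14.1 and 11.7 CPM at 30 µg/kg, against 9.44, 8.05 and 7.18 CPM in vehicle livers (adjusted p = 0.0983). It was called in the 6 libraries alone (0.00888) and in DESeq2 (0.0497), as adjusted p. With 1 library left out its adjusted p ran from 0.0963 to 0.232. In the EGF family Nrg1, a neuregulin, had 18.3, 7.87 and 22.9 CPM at 30 µg/kg, against 0.149, 0.105 and 0.161 CPM in vehicle livers (log2 fold change 6.80, SE 0.48, adjusted p = 6.6e-11). Tgfb2 and Nrg1 were low in every vehicle liver, and the low-count filter favours such calls. Egfr, the EGF receptor of hepatocytes, had 31.6, 128 and 80.3 CPM at 30 µg/kg, against 191, 438 and 208 CPM in vehicle livers (log2 fold change -1.80, SE 0.58, adjusted p = 0.0201), a call lost without replicate 1 (0.102) or 3 (0.0639) at 30 µg/kg or vehicle replicate 2 (0.107), as adjusted p.

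Marker lists of cell types moved in different directions. Of 14 hepatocyte markers 10 fell and 1 rose, summing to 78250, 120300 and 73740 CPM at 30 µg/kg, against 152400, 193700 and 277000 CPM in vehicle livers. These defining genes of liver were present in all 6 livers. Of 11 cholangiocyte markers 9 rose, summing to 413, 163 and 331 CPM at 30 µg/kg, against 89.5, 61.0 and 80.9 CPM in vehicle livers. Krt19, the duct keratin, had 14.7, 3.96 and 17.1 CPM at 30 µg/kg, against 1.75, 0.575 and 0.722 CPM in vehicle livers (log2 fold change 3.51, SE 0.46, adjusted p = 1.38e-06, with a log2 fold change of 4.19 without vehicle replicate 1). Epcam, an epithelial adhesion protein, had 15.7, 3.23 and 15.3 CPM at 30 µg/kg, against 1.04, 0.418 and 1.08 CPM in vehicle livers (log2 fold change 3.71, SE 0.58, adjusted p = 2.36e-05). Prom1 had 50.3, 30.2 and 50.2 CPM at 30 µg/kg, against 2.87, 2.04 and 1.04 CPM in vehicle livers (log2 fold change 4.45, SE 0.57, adjusted p = 3.92e-06). Replicate 2 was the lowest TCDD liver in all 3. Sox9, a transcription factor gene of ducts, had 6.67, 2.84 and 5.58 CPM at 30 µg/kg, against 6.79, 5.28 and 9.43 CPM in vehicle livers (adjusted p = 0.311), and its groups overlapped. Markers of myofibroblasts, the matrix-making cells of scar, rose for 9 of 12, with sums of 636, 276 and 352 CPM at 30 µg/kg, against 136, 99.7 and 138 CPM in vehicle livers. Of 12 stellate cell markers 5 fell (3 without replicate 3 at 30 µg/kg) and 1 rose. The one that rose was Reln, with 255, 147 and 302 CPM at 30 µg/kg, against 67.8, 50.8 and 74.3 CPM in vehicle livers (log2 fold change 1.87, SE 0.23, adjusted p = 7.91e-07). Ecm1 had 66.5, 112 and 64.3 CPM at 30 µg/kg, against 329, 155 and 201 CPM in vehicle livers (log2 fold change -1.5, SE 0.36, adjusted p = 0.00231).

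Markers of lipid-associated macrophages mostly rose, and 6 of 12 markers of recruited macrophages did. Markers of resident Kupffer cells mostly were not called. Gpnmb, a lysosomal glycoprotein of lipid-laden macrophages, had 251, 61.3 and 153 CPM at 30 µg/kg, against 0.224, 0.0523 and 0.281 CPM in vehicle livers (log2 fold change 9.58, SE 1.00, adjusted p = 4.86e-07). Trem2, a lipid receptor of the same cells, had 9.91, 3.15 and 5.85 CPM at 30 µg/kg, against 0.634, 0.732 and 0.923 CPM in vehicle livers (log2 fold change 3.04, SE 0.46, adjusted p = 1.05e-05). Lgals3, galectin-3, had 76.2, 34 and 50.4 CPM at 30 µg/kg, against 6.98, 4.50 and 3.77 CPM in vehicle livers (log2 fold change 3.39, SE 0.41, adjusted p = 1.25e-06). In all 3 genes replicate 1 was the highest and replicate 2 the lowest of the TCDD livers, and no vehicle liver reached them. Of 11 lipid-associated macrophage markers 8 rose, and of 12 markers of recruited macrophages and monocytes 6 rose. Gpnmb and Mmp12, low in every vehicle liver, are among the 8, and the low-count filter favours such calls. Among 11 Kupffer cell markers 1 was called lower (4 without replicate 2 at 30 µg/kg, and 0 without replicate 1 or 3 at 30 µg/kg or vehicle replicate 1). Cd5l, a Kupffer cell protein, had 94.5, 114 and 72 CPM at 30 µg/kg, against 126, 87 and 70 CPM in vehicle livers (adjusted p = 0.986). Of 11 neutrophil markers 10 passed the low-count filter and were called higher (7 to 9 with 1 library left out), a count that the filter favours, since most were near 0 in vehicle livers. S100a8, a calprotectin chain, had 18.5, 17.3 and 33.9 CPM at 30 µg/kg, against 0.373, 0.575 and 0.722 CPM in vehicle livers (log2 fold change 5.37, SE 1.22, adjusted p = 0.00185). Of 11 B and plasma cell markers 7 rose. Of 11 T cell markers 2 rose. Cd3e, of the T cell receptor complex, had 2.18, 0.845 and 1.65 CPM at 30 µg/kg, against 1.04, 0.523 and 0.562 CPM in vehicle livers (adjusted p = 0.0539). Of 12 sinusoidal endothelial markers 1 was called lower (2 without TCDD replicate 2, and 0 without TCDD replicate 1 or vehicle replicate 3). Of 8 vascular endothelial markers 6 rose. Sox17, an endothelial transcription factor, had 9.61, 7.64 and 8.03 CPM at 30 µg/kg, against 2.09, 2.82 and 2.25 CPM in vehicle livers (log2 fold change 1.82, SE 0.27, adjusted p = 7.61e-06).

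**Figure D4:**
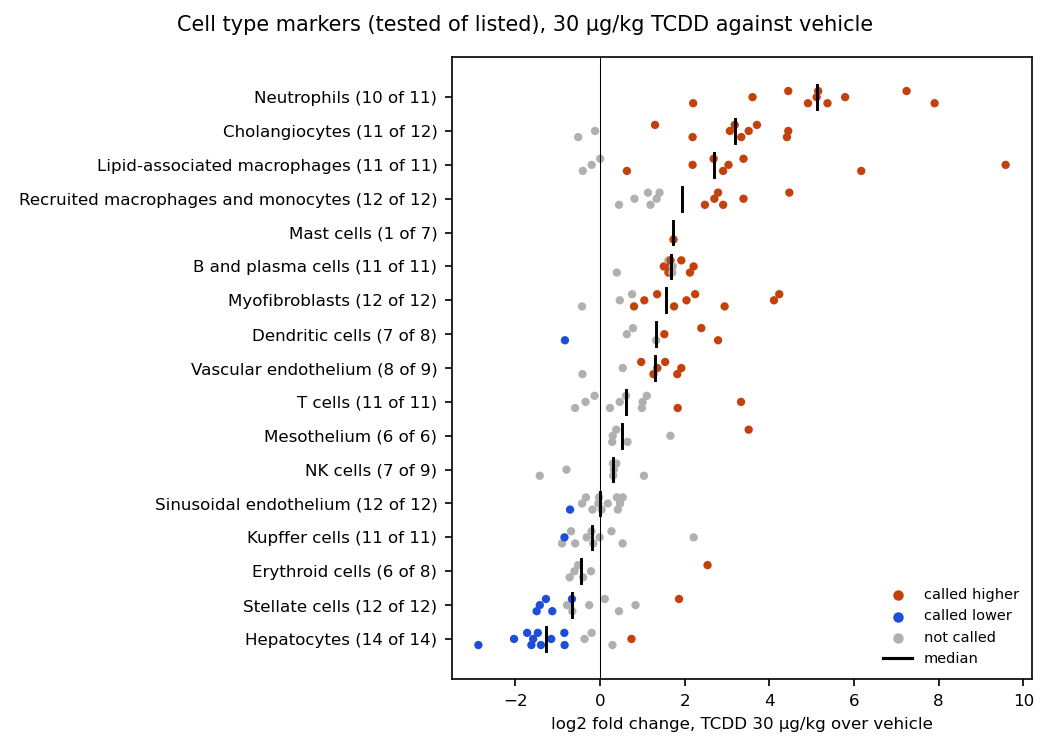
Log2 fold change at 30 µg/kg TCDD over vehicle of each tested marker (points) of 17 cell types, with the number tested of those listed in parentheses and the median as a black bar. Orange points were called higher, blue ones lower and grey ones were not called. Neutrophil, cholangiocyte and recruited and lipid-associated macrophage markers lie mostly to the right, hepatocyte markers mostly to the left. The median of the Kupffer cell markers is -0.20.

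Of 27 chemokine and cytokine genes tested 11 rose (40.74%, beside 18% of all genes). The 6 that fell (22.22%) are near the 19.4% of all genes, and 3 fell without replicate 1 or 3 at 30 µg/kg or vehicle replicate 1. Ccl22, a chemokine of macrophages and dendritic cells, had 3.53, 3.23 and 1.59 CPM at 30 µg/kg, against 0.261, 0.262 and 0.0803 CPM in vehicle livers (log2 fold change 3.78, SE 0.57, adjusted p = 9.96e-06). It was low in every vehicle liver, and the low-count filter favours such a call. Cxcl12, which stroma and hepatocytes make, had 188, 251 and 184 CPM at 30 µg/kg, against 525, 556 and 639 CPM in vehicle livers (log2 fold change -1.47, SE 0.15, adjusted p = 3.7e-08). Ccl2, the monocyte attractant, had 2.94, 1.57 and 1.70 CPM at 30 µg/kg, against 2.61, 0.627 and 1.16 CPM in vehicle livers (adjusted p = 0.587). Of 14 genes of MHC class II and antigen presentation 8 rose, but vehicle replicate 1 was high in this set. Cd74, the invariant chain, had 255, 271 and 199.6 CPM at 30 µg/kg, against 199, 57.5 and 57.5 CPM in vehicle livers (log2 fold change 1.21, SE 0.43, adjusted p = 0.0309, with a log2 fold change of 2.09 without vehicle replicate 1), and its call was lost without replicate 1 (0.0694) or 2 (0.0754) at 30 µg/kg or vehicle replicate 2 (0.14) or 3 (0.144), as adjusted p. The list's count of 8 higher fell to 5 without either of these TCDD livers and to 4 without either of these vehicle livers. Its 5 lower calls became 3 without replicate 3 at 30 µg/kg or vehicle replicate 1. Ctss, cathepsin S, which processes antigen, had 144, 78.9 and 102 CPM at 30 µg/kg, against 52.9, 33.1 and 31.9 CPM in vehicle livers (log2 fold change 1.46, SE 0.31, adjusted p = 0.000789).

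Proliferation genes rose at low levels. Of 28 cell cycle genes 20 rose and 2 fell, with a median log2 fold change of 2.02. Mki67, the proliferation antigen, had 22.4, 9.22 and 10.5 CPM at 30 µg/kg, against 1.64, 1.78 and 1.04 CPM in vehicle livers (log2 fold change 3.24, SE 0.70, adjusted p = 0.00106). Cdk1, the mitotic kinase, had 7.35, 3.61 and 4.79 CPM at 30 µg/kg, against 1.23, 1.41 and 1.12 CPM in vehicle livers (log2 fold change 2.06, SE 0.49, adjusted p = 0.00179). Ccne1, a cyclin of the G1 to S step, had 3.11, 2.04 and 2.02 CPM at 30 µg/kg, against 0.112, 0.262 and 0.161 CPM in vehicle livers (log2 fold change 3.75, SE 0.49, adjusted p = 1.51e-06). Every TCDD liver exceeded every vehicle liver, and replicate 1 was the highest. The 2 falls were both lost without replicate 3 at 30 µg/kg or vehicle replicate 2, and 1 of them without replicate 1 of either group. Cdkn1a, the cell cycle inhibitor p21, had 45.1, 14.2 and 49.5 CPM at 30 µg/kg, against 16.5, 33.8 and 37.6 CPM in vehicle livers (adjusted p = 0.741), with groups that overlap. Among apoptosis genes Tnfrsf10b, a death receptor, had 7.14, 2.88 and 7.07 CPM at 30 µg/kg, against 0.261, 0.209 and 0.161 CPM in vehicle livers (log2 fold change 4.71, SE 0.54, adjusted p = 2.05e-07). In the stress response list Hspa5, the endoplasmic reticulum chaperone BiP, had 512, 543 and 558 CPM at 30 µg/kg, against 259, 629 and 448 CPM in vehicle livers (adjusted p = 0.44). Asns, asparagine synthetase, had 2.18, 1.88 and 6.12 CPM at 30 µg/kg, against 0.149, 0.209 and 0.0803 CPM in vehicle livers (log2 fold change 4.50, SE 1.04, adjusted p = 0.0017, with a log2 fold change of 3.81 without TCDD replicate 3). Trib3, a target of the same stress pathway, had 16.4, 9.06 and 16.3 CPM at 30 µg/kg, against 4.63, 4.34 and 5.66 CPM in vehicle livers (log2 fold change 1.51, SE 0.30, adjusted p = 0.000292). Ccne1, Tnfrsf10b and Asns were low in every vehicle liver, and the low-count filter favours such calls.

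Of 24 genes of junctions and cytoskeleton 9 rose and 5 fell. Cdh1, E-cadherin, had 104, 100.1 and 120.3 CPM at 30 µg/kg, against 26.9, 31.0 and 25.4 CPM in vehicle livers (log2 fold change 1.96, SE 0.23, adjusted p = 4.18e-07). Cldn1, a tight junction claudin, had 14.7, 13.1 and 14.1 CPM at 30 µg/kg, against 117, 93.0 and 115 CPM in vehicle livers (log2 fold change -2.95, SE 0.27, adjusted p = 5.7e-09).

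The 3 livers at 30 µg/kg did not change to the same extent. Among the 1833 genes called higher by more than 2-fold, replicate 2 was the TCDD liver nearest to the vehicle mean for 63.45%, replicate 1 for 11.62% and replicate 3 for 24.93%. Among the 1204 called lower by more than 2-fold the shares were 67.44%, 13.12% and 19.44% for replicates 2, 1 and 3. The median log2 ratio to the vehicle mean over the genes that fell was -1.67, -1.26 and -1.74 in replicates 1, 2 and 3 (CPM plus 0.1). Cyp1a1 and Ahrr do not follow this order: replicate 2 had the highest level of both. Without replicate 2 the count of called genes was 5901, against 4170 without replicate 1 and 4636 without replicate 3. A vehicle liver also stood apart for a few genes: muscle genes were high in vehicle replicate 3, where the skeletal muscle list summed to 212 CPM, against 21.9, 16.7 and 21.9 CPM at 30 µg/kg and 14.7 and 13.9 CPM in the other vehicle livers. Of the 3 muscle calls, all lower, 1 held without vehicle replicate 3. Acta1, not called with all libraries, was then called higher (log2 fold change 9.18, adjusted p = 0.000125). The share of counts on mitochondrial genes was 5.94%, 5.90% and 6.04% at 30 µg/kg, against 5.01%, 4.73% and 5.15% in vehicle, and its part in the results was not tested.

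**Figure D5:**
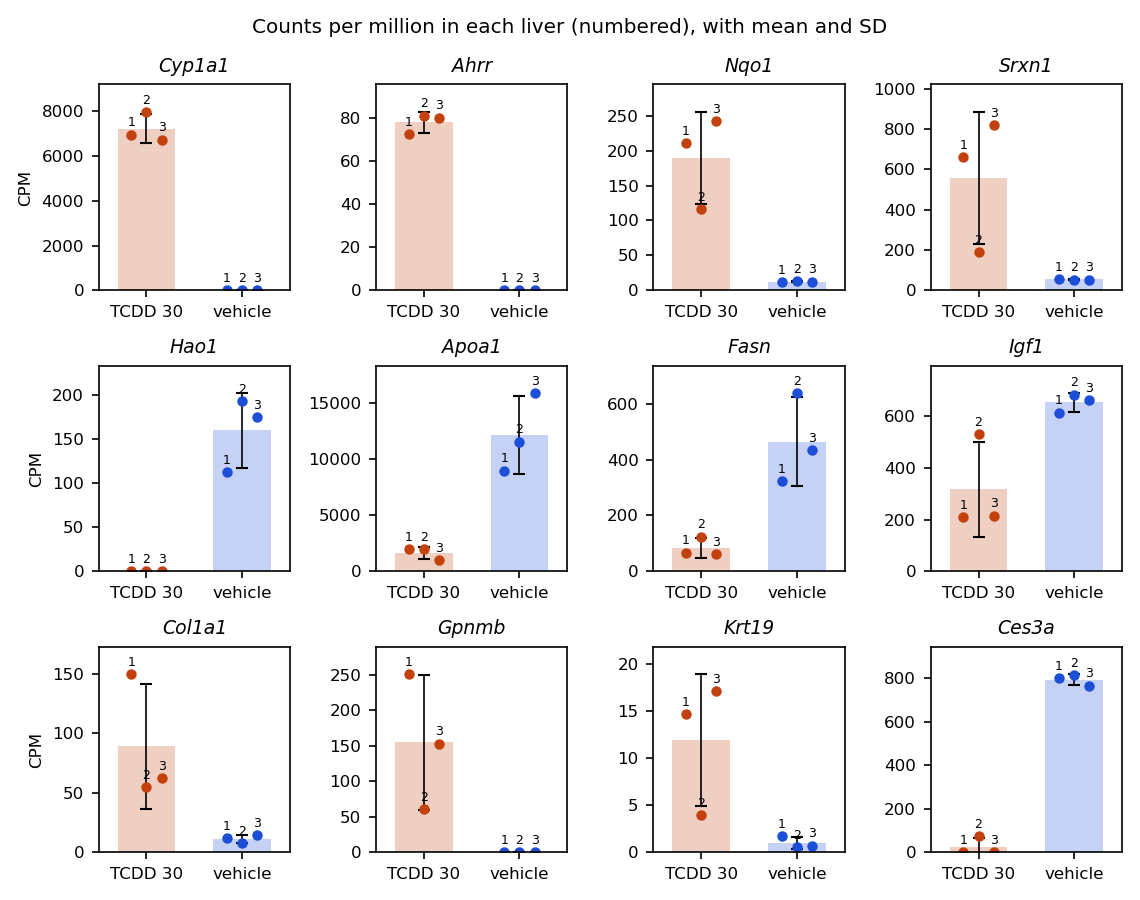
Level in CPM of 12 genes in each liver at 30 µg/kg TCDD (left, orange) and in each vehicle liver (right, blue), on linear axes from 0, with points numbered by replicate, bars at the mean and error bars of 1 SD (n = 3). The TCDD and vehicle points do not overlap in any panel. Of all tested genes, 23.9% lie wholly above vehicle in this way and 25.9% wholly below. Replicate 2 is the TCDD liver nearest to vehicle in Nqo1, Srxn1, Fasn, Igf1, Col1a1, Gpnmb, Krt19 and Ces3a, and by a small margin in Apoa1.

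Between 30 and 10 µg/kg 484 genes were called (3.2%), of which 208 were higher (1.38%) and 276 lower (1.83%) at 30 µg/kg. That count depends strongly on single libraries. It was 65, 1741 and 57 without replicate 1, 2 or 3 at 30 µg/kg, 46, 144 and 651 without replicate 1, 2 or 3 at 10 µg/kg, and 2 in a fit of these 6 libraries alone. The groups also carry different sequencing indices, so dose and index set cannot be told apart here. The called genes given below kept their calls with any 1 of the 6 libraries left out. Many other named genes, such as Epcam and Adgrf1, lost theirs in some of these fits. Tgm3 was low at 10 µg/kg, and the low-count filter favours calls of such genes as higher. Tgm3 had 27.6, 5.72 and 26.5 CPM at 30 µg/kg, against 0.201, 0.417 and 1.18 CPM at 10 µg/kg (log2 fold change 5.07, adjusted p = 0.000437, at most 0.00843 with any 1 of the 6 libraries left out). Krt19 had 14.7, 3.96 and 17.1 CPM at 30 µg/kg, against 1.1, 1.48 and 1.52 CPM at 10 µg/kg (log2 fold change 3.12, adjusted p = 0.000341, at most 0.00778). Srxn1 had 659, 189 and 820.1 CPM at 30 µg/kg, against 112, 94.3 and 156 CPM at 10 µg/kg (log2 fold change 2.21, adjusted p = 0.000341, at most 0.00746). Ecel1 had 36.8, 44.4 and 48.5 CPM at 30 µg/kg, against 7.28, 9.79 and 12.5 CPM at 10 µg/kg (log2 fold change 2.14, adjusted p = 0.000341, at most 0.00632). Fads1 had 82.7, 109 and 69.2 CPM at 30 µg/kg, against 271, 214 and 207 CPM at 10 µg/kg (log2 fold change -1.41, adjusted p = 8.33e-05, at most 0.00246). Cyp2c38, a female-predominant P450 with close copies, had 1.93, 13.2 and 5.96 CPM at 30 µg/kg, against 91.2, 69.5 and 30.9 CPM at 10 µg/kg (log2 fold change -3.17, adjusted p = 0.00158, at most 0.0227). Fitted to the 6 libraries alone, the adjusted p was 0.0142 for Ecel1, but 0.0978 for Tgm3, 0.104 for Krt19, 0.164 for Srxn1, 0.0764 for Fads1 and 0.159 for Cyp2c38, so these 5 calls were lost there. Cyp1a1 had 6938, 7943 and 6721 CPM at 30 µg/kg, against 4941, 6381 and 5885 CPM at 10 µg/kg (adjusted p = 0.421). Hao1, near 0 in both groups, had 0.126, 0.0768 and 0 CPM at 30 µg/kg, against 0, 0.0928 and 0.127 CPM at 10 µg/kg.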

How the data were processed

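The authors deposited a table of whole-number read counts for every library. They list FastQC 0.11.2, cutadapt 1.4.1, TopHat 1.4.1, SAMtools 0.1.19, HTSeq 0.6.1, DESeq and GRCm38, per the submitters' processing notes. Whether counting used strand, and on which annotation release, is not given in the sources used here. The files each have 41388 gene identifiers, of which 40254 matched a symbol and coordinates in GENCODE, and 5 summary lines that entered neither the library sizes nor the fits. Reads on no gene made up 8.70% to 11.9% at 30 µg/kg and 8.56% to 9.54% in vehicle libraries.

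The analysis of counts used edgeR 4.0.16 in R 4.3.3. filterByExpr (minimum count 10) kept 15121 genes, TMM factors were used, and a one-way robust quasi-likelihood model was fitted to all 27 libraries, which share 1 estimate of the spread. SE is the size of a log2 fold change divided by the root of F. Where a group had no counts, the fold is a bound against 3 counts per library; with 1 to 3 counts the pooled ratio has an exact 95% interval. Intervals and floors cover counting error only. RPKM divides CPM by exon length in kilobases. Counts were also simulated with each gene at its mean level over all 27 libraries, not its vehicle level (15121 genes, 200 changed at 30 µg/kg). Recovery against vehicle was 11.94% at 1.5-fold, 37.31% at 2-fold and 84.85% at 4-fold, and 7.292% of calls were false.

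The genes, lists and markers were chosen with earlier results of these data known. The rule for named genes took the 12 largest rises and 12 largest falls among called genes with at least 1 CPM and no overlap, the 10 largest RPKM gains and losses, 5 rises and 5 falls between 30 and 10 µg/kg, and in each list the members with key roles, up to 4 called members with the largest change and the 2 highest uncalled ones. The text gives a selection of these, and some genes are not reported here. Genes given for their spread between livers were picked after their values were seen. Alternatives were RLE and upper-quartile factors, DESeq2 1.42.0, other filters and thresholds, non-robust dispersion, a fit of the 6 libraries, a replicate block and leaving out each library.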

Additional observations from a re-analysis of the deposited data

Results flagged for a closer look

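Reads that fell on more than 1 gene, which the comparisons do not use, made up 3.2586%, 3.063% and 3.0199% of the reads on genes or on none in replicates 1, 2 and 3 at 30 µg/kg, against 1.9209%, 2.0567% and 2.1306% in the vehicle libraries. The 3 TCDD libraries lay above all 3 vehicle libraries, and no test was made. The part of these reads in the calls of overlapping genes was not tested.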

How the results depend on the processing

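The number of genes called between 30 µg/kg and vehicle stayed within 1.5 times the 5660 reported under every alternative but one. It ranged from 5033 to 5915 over scaling, filters, dispersion, DESeq2, the shallow library and the 6 libraries alone, was 3813 at an adjusted p below 0.01, and ran from 4170 to 5901 with 1 library left out (2182 to 2859 higher and 1988 to 3042 lower, with 551 to 674 list members called in place of 669). Asked for changes beyond 1.5-fold, the test called 2504 genes (1430 higher, 1074 lower, and 432 list members), by construction a stricter question. With TMM 48.06% of called genes were higher, against 59.27% with RLE, 59.37% with upper-quartile factors and 58.39% in DESeq2. RLE factors shared 5019 of the 5660 calls, and no alternative called one of them in the opposite direction. Of 342 called named genes 267 kept their call under every alternative but the 1.5-fold threshold.

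The contrast of 30 with 10 µg/kg was unstable. In the 6 libraries alone 2 genes were called, 2 higher and 0 lower (edgeR, with 1312 and 1310 at an unadjusted p below 0.05), and with 1 library left out the count ran from 46 to 1741 (30 to 685 higher, 15 to 1056 lower). DESeq2 on all libraries called 275 higher and 406 lower. The cause was not tested.

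Tnni2, a muscle gene called lower, had a log2 fold change of -4.15 without vehicle replicate 1, and reversed without vehicle replicate 3, to 3.10 (adjusted p = 0.117). 

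Livers of the same number at 30 µg/kg and in vehicle carry the same sequencing index in the deposited names, but no label gives them a shared animal, litter or day. Deviations of same-numbered livers correlated by 0.10, 0.06 and 0.02 between 30 µg/kg and vehicle, over genes. Between 30 and 10 µg/kg they correlated by -0.19, 0.27 and 0.22. Livers of different numbers correlated by -0.10 to 0.01 against vehicle and by -0.41 to 0.27 against 10 µg/kg. With no label that pairs the livers, the numbers were not taken as pairs. With the replicate block 5638 genes were called against vehicle (4975 in the 6 libraries alone) and 553 against 10 µg/kg (652 in the 6 libraries alone).

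With 3 livers a group, 11.94% of the 1.5-fold changes were recovered in the counts simulated at mean levels over all 27 libraries. Only 200 of 15121 genes were changed there, whereas 37.4% were called in the data. The adjustment for many genes is stricter in such a setting, so the share of changes missed in the data cannot be read from it.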
